A study of Mus musculus with 8 samples.

Results

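The sites described here are the ERRα ChIP-seq intervals that were called in liver and in skeletal muscle of both genotypes. They were chosen from the 21813 intervals of the WT liver list as those whose centre lay within 300 bp of the centre of an interval in each of the other 3 lists, namely 29040 intervals of ERRα 3SA liver, 25427 of WT muscle and 50647 of ERRα 3SA muscle. This left 1672 sites, or 7.67% of the WT liver intervals, called shared sites below. Because presence in a list is itself a measured value, the ranks and scores of the shared sites are given as a description and without a test.

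All mice were males of 2 to 3 months on a C57BL/6N background. WT mice carried unmodified ERRα, and ERRα 3SA mice carried a phospho-deficient form of the receptor, in which 3 regulated phosphorylation sites of its amino-terminal part are mutated. Liver was pooled from 2 mice and skeletal muscle (gastrocnemius and soleus) from 5 mice per genotype, 3 immunoprecipitations with an ERRα antibody were pooled per sample as the labels state, and input DNA of the same tissue and genotype served as control. Each genotype and tissue thus had 1 library and 1 list. There were no replicates, the lists carry no read numbers, and the depth of the libraries is unknown.

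ERRα is an orphan nuclear receptor, encoded by Esrra, that works with PGC-1 coactivators rather than with a known hormone. It binds an AGGTCA hexamer that is extended at its 5′ end, the ERR response element (ERRE), read here as TCAAGGTCA. In heart, muscle, liver and brown fat it is known for driving genes of mitochondrial respiration and fuel oxidation.

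The reference sequence of a few shared sites is printed for what it shows of their elements, from GRCm38 (mm10), plus strand, 5′ to 3′, with each ERRE and each AGGTCA hexamer of either strand in capitals. The following 3 stretches are shown because they hold the hexamer in arrays within sites that ranked near the top of every list.
Pld1, chr3:28113920-28114219: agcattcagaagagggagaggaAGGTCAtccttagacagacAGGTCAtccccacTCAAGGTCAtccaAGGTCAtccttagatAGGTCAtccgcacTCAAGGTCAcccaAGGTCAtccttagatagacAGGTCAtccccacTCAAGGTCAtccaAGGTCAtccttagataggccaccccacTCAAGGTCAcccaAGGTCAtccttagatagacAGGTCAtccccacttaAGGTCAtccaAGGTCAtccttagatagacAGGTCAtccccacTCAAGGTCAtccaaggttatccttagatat
Lace1, chr10:42463049-42463248: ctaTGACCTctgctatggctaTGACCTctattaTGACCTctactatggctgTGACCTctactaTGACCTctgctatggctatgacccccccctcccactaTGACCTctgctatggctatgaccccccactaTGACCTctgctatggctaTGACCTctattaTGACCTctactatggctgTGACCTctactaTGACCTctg
Camk1d, chr2:5534646-5534725: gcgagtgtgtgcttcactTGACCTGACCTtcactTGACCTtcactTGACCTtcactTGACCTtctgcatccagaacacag

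The next stretches come from shared sites at genes of mitochondrial energy metabolism. At Atp5b and Slc25a5 the element lay in the 300 bp around the centre of the WT liver interval, whereas at Ndufb4, Idh3a and Got1 the ERRE lay in the interval but outside those 300 bp.
Atp5b, chr10:128083459-128083538: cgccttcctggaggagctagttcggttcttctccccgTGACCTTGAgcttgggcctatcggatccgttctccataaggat
Ndufb4, chr16:37654718-37654817: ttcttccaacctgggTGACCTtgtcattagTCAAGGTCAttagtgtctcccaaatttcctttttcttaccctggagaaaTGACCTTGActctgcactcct
Idh3a, chr9:54587254-54587353: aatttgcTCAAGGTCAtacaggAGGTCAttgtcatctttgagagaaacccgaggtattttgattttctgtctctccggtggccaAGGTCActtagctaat
Got1, chr19:43525313-43525412: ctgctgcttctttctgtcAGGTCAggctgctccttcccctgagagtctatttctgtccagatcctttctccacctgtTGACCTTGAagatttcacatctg
Slc25a5, chrX:36796168-36796227: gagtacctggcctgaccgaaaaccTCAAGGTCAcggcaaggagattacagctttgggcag

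A pair of ERREs on opposite strands at Fam69a, a lone hexamer in the Zfp27 promoter region and the ERRE upstream of the clock gene Bhlhe40 are shown as 3 other arrangements among highly ranked sites. The pair at Fam69a lay in the interval but outside the central 300 bp.
Fam69a, chr5:108005203-108005302: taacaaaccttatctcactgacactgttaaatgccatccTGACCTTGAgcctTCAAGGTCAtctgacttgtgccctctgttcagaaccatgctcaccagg
Zfp27, chr7:29906107-29906186: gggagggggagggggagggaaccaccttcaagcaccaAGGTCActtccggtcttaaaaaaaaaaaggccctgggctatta
Bhlhe40, chr6:108659085-108659144: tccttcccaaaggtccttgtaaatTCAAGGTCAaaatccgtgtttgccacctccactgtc

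The last stretches belong to 5 of the 6 sites whose ranks differed most between tissues, Lancl1 and Mvk with high ranks in liver and Mir1963, Pvalb and Rnft1 with high ranks in muscle. Of the 6, Rnft1 and the liver site Rnf220, which is not printed, had no TCAAGGTCA in the interval. At Lancl1 and Mvk the ERRE lay in the interval but outside the central 300 bp. The hexamer in the Rnft1 stretch does match a looser form of the element, TNAAGGTCA, in which N is any base.
Lancl1, chr1:67002469-67002498: gtcTCAAGGTCAgccaaAGGTCAggtggga
Mvk, chr5:114462519-114462598: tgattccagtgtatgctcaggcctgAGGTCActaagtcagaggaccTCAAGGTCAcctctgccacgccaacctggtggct
Mir1963, an intron of Ryr1, chr7:29097048-29097147: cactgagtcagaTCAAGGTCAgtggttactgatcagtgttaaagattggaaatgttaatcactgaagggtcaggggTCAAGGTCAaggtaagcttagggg
Pvalb, chr15:78205187-78205246: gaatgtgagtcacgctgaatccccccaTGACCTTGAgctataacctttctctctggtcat
Rnft1, chr11:86472856-86472915: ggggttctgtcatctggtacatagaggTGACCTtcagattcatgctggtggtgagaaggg

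Of the WT liver intervals, 9361 (42.9%) had a partner in ERRα 3SA liver, 4798 (22.0%) in ERRα 3SA muscle and 2965 (13.6%) in WT muscle, while 10689 (49.0%) had none. A partner in both muscle lists was found for 2011 intervals, of which 339 lacked one in ERRα 3SA liver. The centres of the shared sites lay a median of 77.0 bp from their ERRα 3SA liver partner, 87.5 bp from the WT muscle partner and 85.5 bp from the ERRα 3SA muscle partner. Just inside the limit, the farthest partner lay 300 bp away at A730006G06Rik, Gsn and Csrnp1, with WT liver ranks of 199, 585 and 2091. Just outside it were Rnaset2a at 301.0 bp and Zfpm1 and Mir7674 at 301.5 bp, with ranks of 12528, 4981 and 16370.

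The centre rule left out wide intervals. In all, 2526 WT liver intervals shared at least 1 base with an interval of each other list, and the 854 of them that were no shared sites by the rule had a median width of 912 bp against 698 bp of the shared sites. They include the promoter of Esrra itself, on chromosome 19 at 6921443–6923407, which ranked 5 in WT liver, 3 in ERRα 3SA liver, 8 in WT muscle and 6 in ERRα 3SA muscle. In ERRα 3SA muscle its interval was 4101 bp wide and its centre lay 749.0 bp from that of WT liver. Capn2, a calpain protease, and the glycolytic genes Eno1 and Aldoa, with WT liver ranks of 3, 10 and 11, were left out in the same way.

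The score of an interval is the peak caller's number against input DNA. It was used to rank intervals within a list, with tied intervals at the best rank of the tie. Apart from counts of sites above or below a fixed score in several lists, scores were not compared between lists. The top percent of an interval is its rank divided by the length of the list, so that for the same rank it is smaller in a longer list. Shares of intervals are given with 95% Wilson intervals, and differences between shares with 95% Newcombe intervals in percentage points. Both cover counting error over intervals only. As a check of the labelled tissues, 9 and 14 of 20 genes abundant in liver had an interval within 20 kb of the transcription start site (TSS) in WT and ERRα 3SA liver, against 2 and 6 in the muscle lists. Of 20 genes abundant in muscle, 14 and 16 had one in the muscle lists and 9 and 8 in the liver lists. Over all 19188 genes named in any list the share was 39.2% in WT liver, 49.2% in ERRα 3SA liver, 45.1% in WT muscle and 63.5% in ERRα 3SA muscle.

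The shared sites lay toward the top of every list. Their median top percent was 12.7 in WT liver, 9.92 in ERRα 3SA liver, 7.10 in WT muscle and 3.86 in ERRα 3SA muscle, as the plot of ranks by list shows. When each list was cut to the length of the shortest, these medians were 11.0, 11.9, 8.16 and 8.02, so that the smaller values in ERRα 3SA mice went with the longer lists. Shared sites made up 114 of the 218 intervals in the top 1% of WT liver (52.3%), 138 of 290 in ERRα 3SA liver (47.6%), 142 of 254 in WT muscle (55.9%) and 267 of 511 in ERRα 3SA muscle (52.3%). Many shared sites were nonetheless weak. Of the 1672, 794 scored under 50 in at least 1 list, 131 had the lowest score of the WT muscle list, and 403 scored at least 100 in all 4 lists. Across the 1672 sites, which share their intervals and each tissue's pool of mice within a list, the ranks had a Spearman correlation of 0.84 between the liver lists and 0.75 between the muscle lists, and of 0.40 to 0.49 between a liver and a muscle list.

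**Figure D1:**
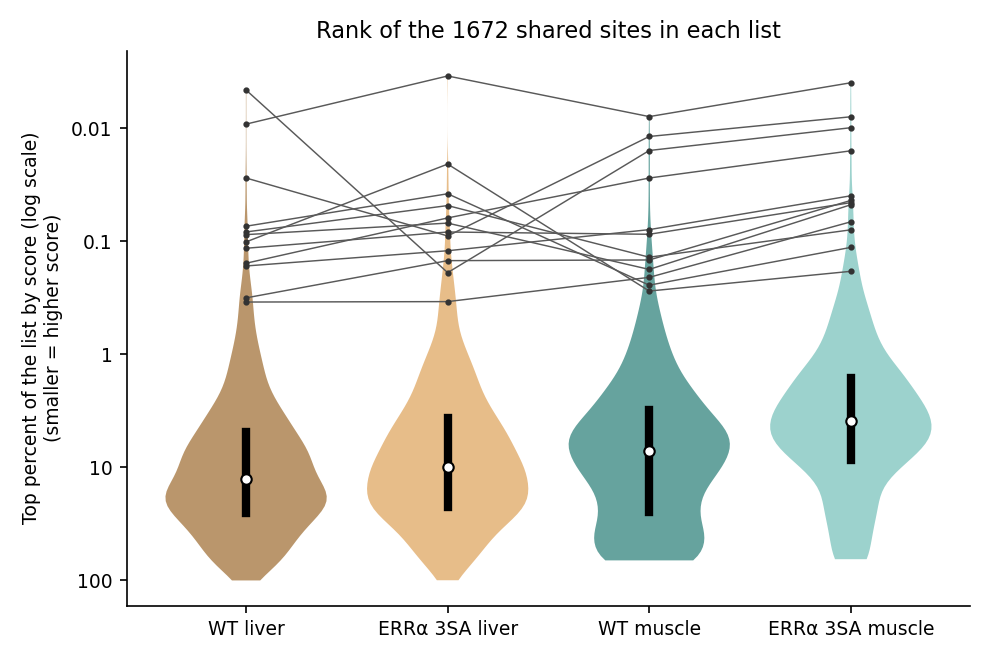
Top percent of the 1672 shared sites by score in each of the 4 lists (log axis, smaller values at the top), with violins for the distribution, bars for the quartiles, white points for the medians and lines for the 12 sites with the smallest worst top percent. Medians run from 12.7 in WT liver to 3.86 in ERRα 3SA muscle, and the 12 lines stay above the 1% mark in every list.

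The site with the best ranks throughout lay in an intron of Pld1, which encodes phospholipase D1, on chromosome 3 at 28113624–28114492. It ranked 2 in WT liver, 1 in ERRα 3SA liver, 2 in WT muscle and 2 in ERRα 3SA muscle, and its central 300 bp held 17 hexamers, 5 of them within an ERRE. It lay 129887 bp from the TSS, so that its gene is named by position alone. Ranks are given in this order of the lists from here on. An intronic site of Lace1 (Afg1l in GENCODE), which encodes a mitochondrial ATPase, ranked 25, 24, 22 and 23 and held 33 hexamers in its interval without an ERRE. An intronic site of the kinase gene Camk1d ranked 22, 6, 70 and 93. It had 5 hexamers, likewise without an ERRE, although some matched the looser TNAAGGTCA. These 3 sites stood in the top 1% of every list, each more than 10 kb from the TSS.

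Promoter-region sites among the 12 best ranked included those of the zinc finger gene Zfp27, at ranks 34, 18, 7 and 8, and of Ndufb4, a subunit of complex I, at ranks 19, 20, 45 and 24. Med23, a Mediator subunit gene, ranked 16, 11, 62 and 57 and held neither an ERRE nor a hexamer in its central window. Klhl24 ranked 69, 43, 37 and 22, and Atp5b, the catalytic subunit of ATP synthase, ranked 75, 99, 53 and 34. Fam69a, an intergenic site 17808 bp upstream of the TSS, ranked 18, 14, 35 and 40. Rn45s, the precursor of ribosomal RNA, whose genes are known to be repeated in tandem, ranked 1, 55, 4 and 5, although its central window had 1 copy in the assembly. The site near Ly6c2, whose window had 2 near-identical copies in the assembly, ranked 6, 26, 3 and 4. The part of reads from other copies in these ranks was not tested.

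Shared sites lay at promoters and in CpG-rich sequence more often than the other WT liver intervals. The authors' annotation put 241 of them (14.4%, 12.8–16.2) at promoter-TSS, against 4.92% of the 20141 others, a difference of 9.50 points (7.87 to 11.3). Their centre lay within 1 kb of a TSS in 28.9% against 9.08%, and within 20 kb in 67.8% against 50.1%. CpG-rich intervals, those with a deposited CpG content of at least 0.05 (5%), made up 384 shared sites (23.0%) against 4.89%, a difference of 18.1 points (16.1 to 20.2). The median CpG content was 1.70% against 1.19% and the median GC content 52.8% against 50.1%. Outside promoter-TSS, 16.2% of shared sites were CpG-rich against 3.28%. Most shared sites were nevertheless in introns (807, 48.3%) or intergenic (464, 27.8%).

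Repeats were less frequent among the shared sites than among the other WT liver intervals. Intervals centred in a repeat made up 17.6% of them against 33.2% of the others, a difference of -15.5 points (-17.4 to -13.5). In this comparison the lower share came from LINE elements, at 1.97% against 9.90%, and LTR elements, at 2.81% against 8.65%. SINE elements differed by -1.18 points (-2.65 to 0.457), an interval that includes 0. Shared sites were also wider, with a median of 698 bp against 395 bp, and 510 bp for WT liver intervals shared with ERRα 3SA liver alone. Their median WT liver score was 127 against 44.0 of the others, and width was not compared at equal score.

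The same features were compared with the sites bound in both genotypes of 1 tissue alone. Of 5372 WT liver intervals with a partner in ERRα 3SA liver and in neither muscle list, 5.40% were at promoter-TSS and 3.74% were CpG-rich, 9.02 points (7.29 to 10.9) and 19.2 points (17.2 to 21.4) below the shared sites. Of 2534 WT muscle intervals shared with ERRα 3SA muscle alone, 5.17% were at promoter-TSS and 10.3% were CpG-rich, 9.24 points (7.39 to 11.2) and 12.7 points (10.4 to 15.0) below. The ERRE separated the shared sites from the muscle sites, with 24.6% against 5.05%, a difference of 19.6 points (17.4 to 21.9). It did not separate them from the liver sites, with 23.6% and a difference of 1.07 points (-1.24 to 3.47). No feature was compared with the muscle sites at equal score. Intervals centred in a repeat made up 28.8% of the liver sites. There SINE elements differed most, by -5.93 points (-7.66 to -4.08), and LINE elements by -0.874 points (-1.62 to 0.0123). From the muscle sites the repeat share differed by -2.40 points (-4.78 to 0.0255), while SINE elements were more frequent in shared sites, by 6.19 points (4.53 to 7.93).

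Because a strong interval is found in other lists more readily, each feature was also read within bands of the WT liver score. The share of WT liver intervals that were shared sites rose with the score, from 2.06% at scores of 30 to 49 through 9.05%, 18.9% and 32.3% to 46.3% at scores of 500 and more. The excess at promoters and in CpG-rich sequence was present in each of the 5 bands, as the plot by score band shows. CpG-rich shared sites made up 23.2% of the weakest band, against 4.94% of the others in it, and 32.3% of the strongest band, against 7.52%. The ERRE behaved otherwise. It was more frequent among shared sites at scores of 30 to 49, with 18.6% against 8.76% (a difference of 9.81 points, 5.66 to 14.8), while from a score of 50 upward the interval of the difference included 0 in all 4 bands. At scores of at least 100 the ERRE was found in 27.1% of 991 shared sites and 27.2% of 2779 others, a difference of -0.0957 points (-3.26 to 3.19), and CpG-rich intervals made up 24.3% and 4.53%.

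**Figure D2:**
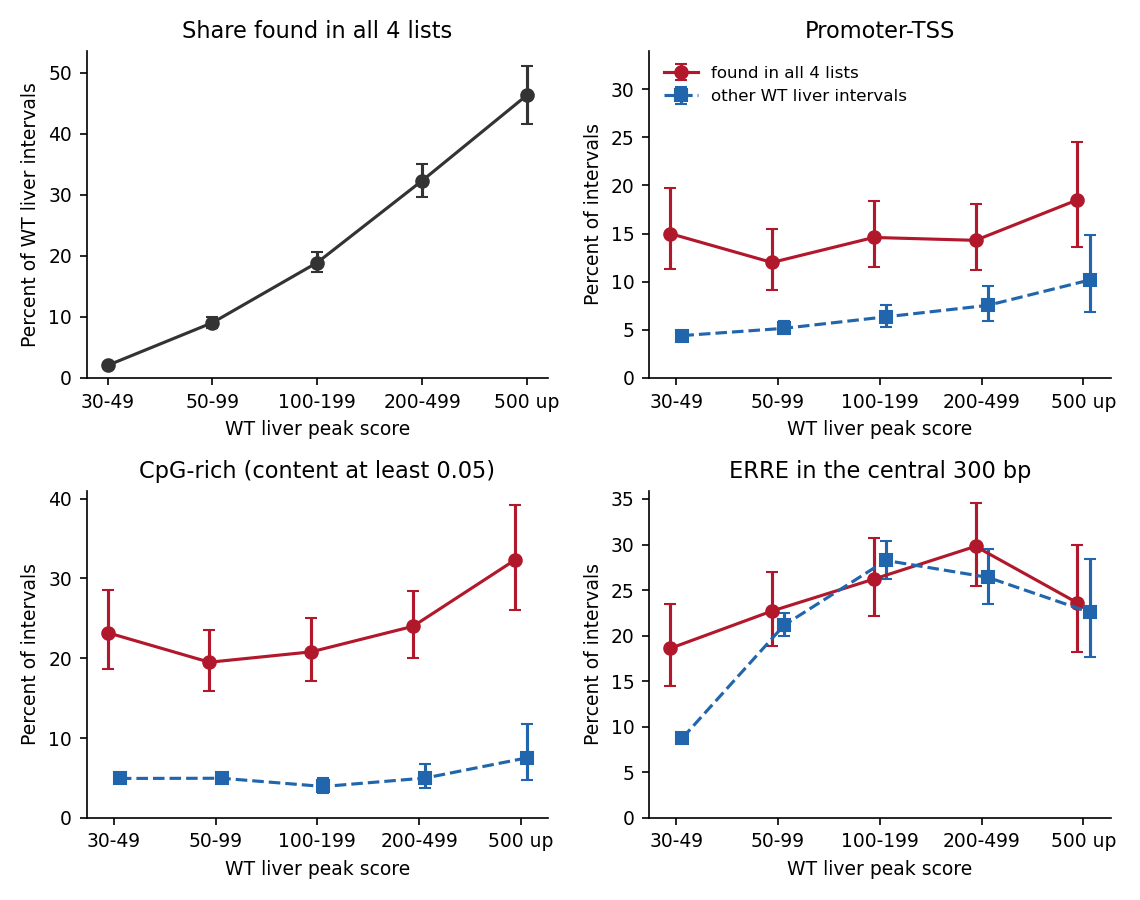
Percent of WT liver intervals found in all 4 lists (upper left) and, for shared sites (circles) and other WT liver intervals (squares), percent at promoter-TSS, CpG-rich and with an ERRE, each by band of the WT liver peak score, with 95% Wilson intervals. The share found in all 4 lists climbs from 2.06% to 46.3%, the CpG-rich lines stay apart in every band, and the ERRE lines separate in the lowest band only.

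The ERRE was found in the central 300 bp of 412 shared sites, 24.6% (22.6–26.8), against 13.8% of the other WT liver intervals. Windows 5 kb to either side of the shared sites held it in 0.957%, and the reversed motif ACTGGAACT was present in 0.359% of the shared sites. For comparison, 0.424% of 32817 RefSeq promoters of the same length held the ERRE. The element was rarer at promoters, with 12.9% of the promoter-TSS shared sites and 10.7% of the other promoter-TSS intervals, and more frequent among shared sites that were not CpG-rich, with 29.1% against 14.4%. CpG-rich shared sites held it in 9.64%, against 2.85% of the other CpG-rich intervals. At WT liver scores of at least 100 the CpG-rich shares were 13.3% and 7.94%, a difference of 5.34 points (-1.76 to 11.4). At these scores the intervals that were not CpG-rich had 31.6% and 28.2%, a difference of 3.44 points (-0.223 to 7.25). Promoter-TSS intervals at these scores had 15.2% and 22.1%, a difference of -6.82 points (-14.8 to 1.60). The intervals of all these differences include 0. Over the whole interval 33.5% of shared sites held it. Of the 475 elements, 44.0% lay within 50 bp and 78.3% within 100 bp of the WT liver centre, and in 193 of the 412 sites the same element lay in the central window of all 4 lists.

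The AGGTCA hexamer, which every ERRE contains, was present in 70.0% of shared sites against 47.0% of the others and 16.3% of RefSeq promoters. At scores of at least 100 it was present in 71.4% and 68.4%, and the difference fell from 23.0 points (20.7 to 25.3) to 3.04 points (-0.318 to 6.28), an interval that includes 0. Among CpG-rich intervals it was present in 57.8% of the shared sites and 27.7% of the others. At scores of at least 100 these shares were 63.9% and 48.4%, a difference of 15.5 points (4.83 to 25.8). The motif GGGCGG, bound by SP and KLF factors, was found in 19.2% of shared sites against 8.86% of the others. It is frequent at promoters in general, where it was found in 44.4% of the promoter-TSS shared sites and 35.6% of RefSeq promoters. The HNF4A motif CAAAGTCCA was found in 1 of the 1672 shared sites (0.0598%), against 0.601% of the other WT liver intervals and 0.875% of those shared with ERRα 3SA liver alone. The muscle motif CAGCTG of MyoD was found in 18.6% of shared sites, 19.1% of the others and 633 of the 2534 WT muscle intervals shared with ERRα 3SA muscle alone. TATTTATA, read for MEF2, was found in 0.658% and 0.824%. Motifs of other promoter factors were each present in under 2% of shared sites, most of them more often than in the other WT liver intervals. CCGGAAGT (ETS) was found in 20 of the 1672 sites against 113 of the 20141 others, AAGATGGCG (YY1) in 0.837% against 0.407%, TGACGTCA (CRE) in 0.598% against 0.204% and CGCATGCG (NRF1) in 0.419% against 0.129%. AGCCAATC (NFY) was found in 20 sites against 221 of the others. RefSeq promoters held these 5 motifs in 3.89%, 1.40%, 1.79%, 1.86% and 3.83%. The E-box CACGTG of the clock factors was found in 5.20% against 4.58%. Searches covered both strands, and a match describes letters only.

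A small set of shared sites held the hexamer in arrays. Of the 65 WT liver intervals with 5 or more hexamers in the central window, 27 were shared sites (41.5%, 30.4–53.7), against 4.49% of the intervals with none. At scores of at least 100, 24 of 38 such intervals were shared (63.2%, 47.3–76.6), while the share stood between 24.4% and 28.6% for intervals with 0 to 4 hexamers. Of the classes in the plot by number of hexamers, the one with 5 or more stood apart at these scores. Scores above 100 were not matched between the classes, and the share found in all 4 lists rises with the score. Over the 27 sites the median top percent was 2.68, 1.56, 4.16 and 0.918 in the order of the lists, and 6 of them were among the 48 shared sites in the top 1% of all 4 lists. Of the 27, 19 lay in introns and 8 between genes, none at promoter-TSS, 1 was CpG-rich, and 3 had near-identical copies elsewhere. An ERRE was present in 7 of them, and in the others no hexamer of the window was part of a TCAAGGTCA.

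**Figure D3:**
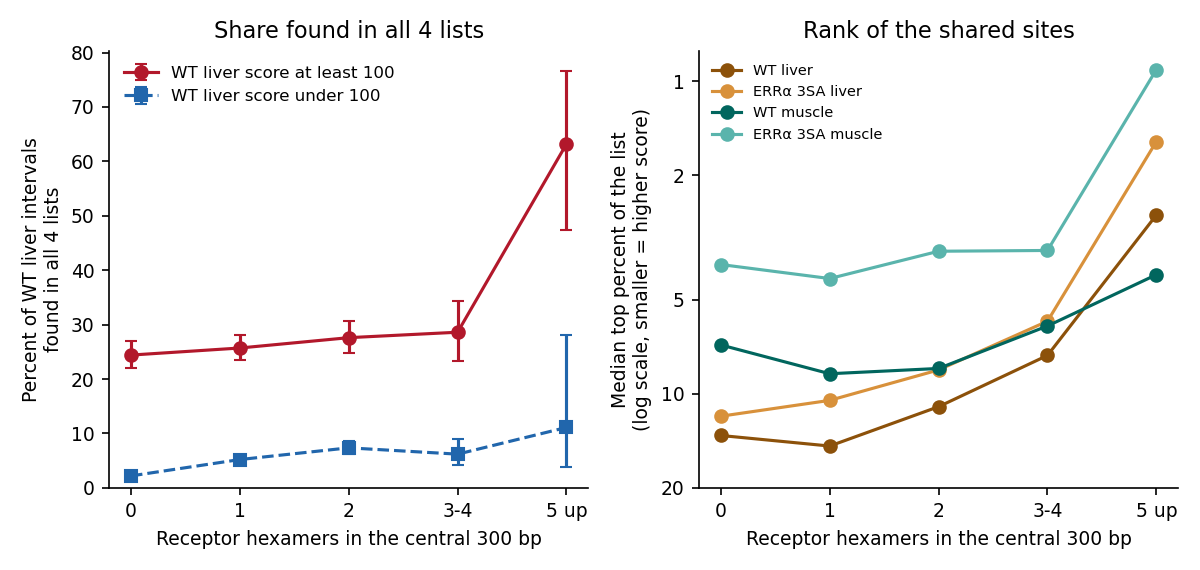
Left, percent of WT liver intervals found in all 4 lists by the number of AGGTCA hexamers in the central 300 bp, for WT liver scores of at least 100 (circles) and under 100 (squares), with 95% Wilson intervals. Right, median top percent of the shared sites in each list (log axis, smaller values at the top), where sites with 5 or more hexamers reach 0.918 in ERRα 3SA muscle and 4.16 in WT muscle.

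Beyond Pld1, Lace1 and Camk1d, the arrays included an intergenic site near the transcription factor gene Zfp217, with 5 hexamers of which 3 belonged to an ERRE, and one near Ntrk2, the receptor of the neurotrophin BDNF, with 7 in the window and 24 in the interval. The window near Ntrk2 had 5 near-identical copies in the assembly, the site itself included. Tbc1d1, a regulator of glucose transporter traffic in muscle, had an intronic site with 7 hexamers and no ERRE. Arrays built of whole ERREs stood in introns of Cep152, with 5, and Plcz1, with 7. These 5 genes were chosen for naming after their values were seen.

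Genes of oxidative phosphorylation stood out among the genes near shared sites. Over all 19188 genes named in any list, 1051 (5.48%) had a shared site within 20 kb of the TSS. Of 82 genes for subunits of the respiratory complexes and ATP synthase, 46 (56.1%) did, and for 43 of them the site lay within 1 kb. The counts were 17 of 36 for complex I, 2 of 4 for complex II, 5 of 10 for complex III, 8 of 14 for complex IV and 14 of 18 for ATP synthase. Genes bound within 20 kb in all 4 lists, whether or not at the same site, numbered 3074, of which 1041 (33.9%) had a shared site. For oxidative phosphorylation 58 genes were bound in all 4 lists and 46 of these had a shared site. The gene lists were chosen with results of these data known.

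Within complex I, which passes electrons from NADH to ubiquinone, the best ranked sites after Ndufb4 were those of Ndufs7, at ranks 112, 81, 32 and 49, and Ndufb5, at ranks 187, 158, 194 and 170. Sdha and Sdhc, of succinate dehydrogenase, had promoter-TSS sites at ranks 320, 445, 85 and 93 and at ranks 2226, 1666, 919 and 1129. In complex III, which passes electrons to cytochrome c, Uqcrc1 ranked 153, 120, 120 and 180 and Cyc1, the cytochrome c1 subunit, 149, 130, 227 and 246, ahead of Uqcrc2 at 293, 487, 1481 and 1764. Among the sites named in this paragraph, the geometric mean of the top percent differed least between tissues at Ndufb4, 1.18-fold, and most at Sdha, 6.05-fold.

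In complex IV, the terminal oxidase, the best ranked sites were those of Cox7c, at ranks 368, 655, 478 and 696, Cox8a, at ranks 757, 505, 296 and 307, and Cox4i1, at ranks 757, 1320, 339 and 492. The F1 subunit gene Atp5a1 ranked 81, 93, 110 and 130, and 2010107E04Rik, which encodes a small subunit of ATP synthase, ranked 53, 51, 134 and 108. ATP synthase had the largest share of its genes with a shared site among the groups examined, and its 14 sites had median top percents of 3.83, 1.91, 0.973 and 1.19. All 47 shared sites near genes of oxidative phosphorylation had medians of 5.34, 4.15, 2.20 and 1.73, and 35 of them were CpG-rich.

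In the tricarboxylic acid (TCA) cycle list, which also holds the linked cytosolic enzymes Aco1, Mdh1 and Got1, 12 of 18 genes had a shared site. They include Cs (citrate synthase), Idh3a, Idh3b, Idh2, Ogdh, Suclg1, Fh1 and Mdh2. Idh3a, a subunit of the NAD-dependent isocitrate dehydrogenase, ranked 47, 79, 159 and 117, and Got1, the cytosolic aspartate aminotransferase, 240, 195, 67 and 53. Got1 thus stood higher in muscle, with 3 ERREs in its interval. Of the 48 sites in the top 1% of all 4 lists, 11 (22.9%) were at genes of oxidative phosphorylation or the TCA cycle, against 60 of all 1672 (3.59%).

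**Figure D4:**
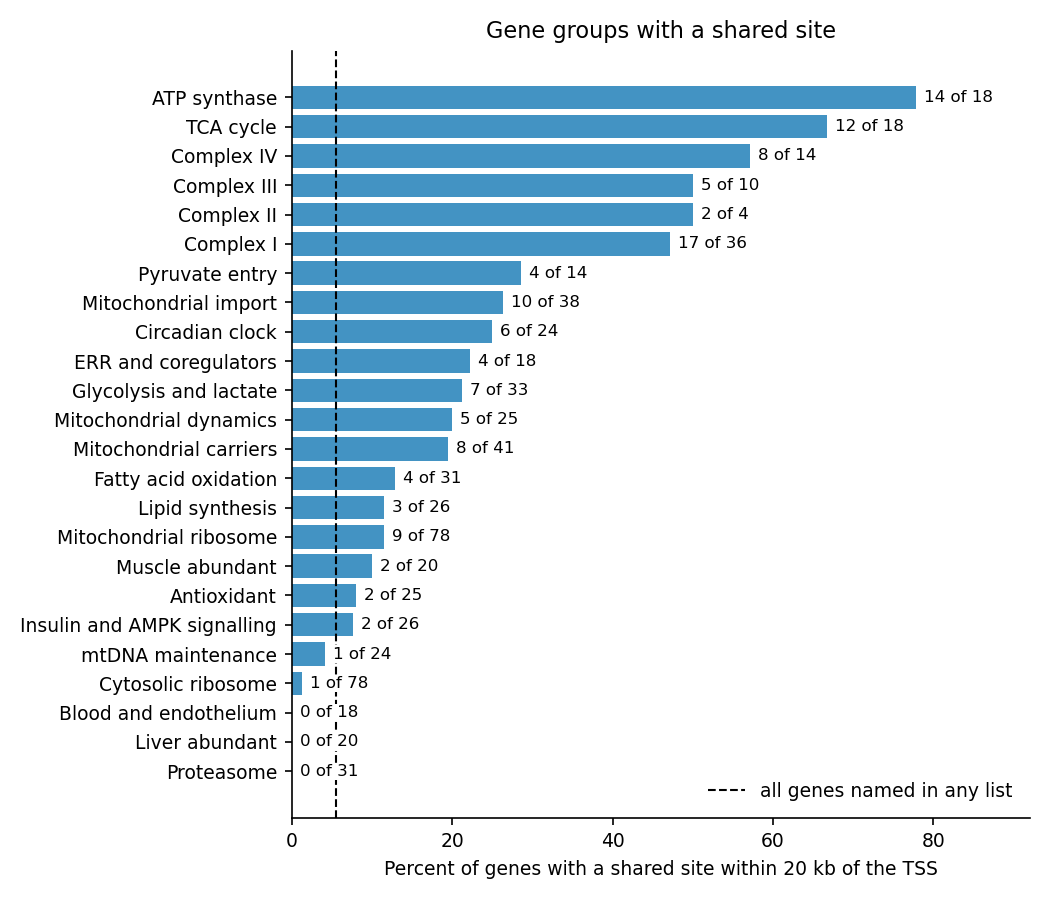
Percent of the genes of each list with a shared site within 20 kb of the TSS, with the numbers beside the bars and a dashed line at the 5.48% of all genes named in any list. ATP synthase (14 of 18) and the TCA cycle (12 of 18) have the longest bars, and the lists of proteasome, liver-abundant and blood or endothelial genes have none.

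Other routes into the mitochondrion were less often covered. Of 14 genes for pyruvate entry, 4 had a shared site, among them both subunits of the mitochondrial pyruvate carrier, Mpc1 at ranks 1463, 1378, 186 and 153 and Mpc2 at ranks 3204, 4182, 2194 and 1889. Pdhb, of pyruvate dehydrogenase, ranked 5512, 4514, 3962 and 3561. Of 31 genes for fatty acid oxidation, 4 had one (12.9%). Etfa, which passes electrons from acyl-CoA dehydrogenases to the respiratory chain, ranked 194, 213, 146 and 157. Ppara, a nuclear receptor for fatty acids, ranked 633, 591, 1058 and 859, and Cpt1a, which commits fatty acids to oxidation, 1107, 2039, 2872 and 1773. Acaa2, the thiolase of the last step of β-oxidation, ranked 4523, 4479, 9617 and 3051. Fatty acid oxidation genes were not unbound, since 21, 23, 21 and 23 of the 31 had an interval within 20 kb in the lists and 13 had one in all 4. Of these 13, 4 had it at a shared site, a share close to the 33.9% of all genes.

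For glycolysis and lactate, 7 of 33 genes had a shared site. Gpi1, glucose phosphate isomerase, ranked 401, 240, 138 and 98, Ldha, the muscle type lactate dehydrogenase subunit, 257, 147, 600 and 780, and Pfkp, a phosphofructokinase, 904, 1587, 430 and 230. The site of Ldha lay 6267 bp upstream of the TSS, while that of Gpi1 lay at the promoter and that of Pfkp in an intron 1150 bp from the TSS. Slc16a1, the lactate and pyruvate transporter MCT1, had a site that ranked 2091, 5533, 1032 and 617.

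Mitochondrial import and carriers followed, with 10 of 38 and 8 of 41 genes. Among import genes, Mtx2 of the outer membrane ranked 114, 286, 485 and 402, Samm50, which inserts barrel proteins into it, 718, 576, 862 and 275, and Hspa9, the motor chaperone of the matrix, 1107, 378, 175 and 123. Slc25a39, a carrier needed for mitochondrial glutathione, ranked 249, 213, 33 and 47, and the dicarboxylate carrier Slc25a10 ranked 70, 41, 486 and 520 at a site 14876 bp from the TSS. The ADP/ATP carrier Slc25a5, 1 of 9 shared sites on the X chromosome, ranked 523, 349, 186 and 366.

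Of the mitochondrial ribosomal protein genes, 9 of 78 (11.5%) had a shared site. The best ranked were Mrps35, at 541, 596, 460 and 465, Mrpl36, at 470, 743, 714 and 557, and Mrpl12, at 757, 655, 1058 and 928. Of the cytosolic ribosomal protein genes, 1 of 78 did. Maintenance of mitochondrial DNA had 1 of 24, Polg, the mitochondrial DNA polymerase, at ranks 16370, 5616, 1805 and 4392. Genes for mitochondrial fusion, fission and mitophagy had 5 of 25. Among them Chchd3, of the cristae-organising MICOS complex, ranked 605, 416, 480 and 686, the fusion gene Mfn1 1636, 826, 486 and 347, and Pink1, a kinase of mitophagy, 5464, 4219, 1805 and 1773.

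Regulators were represented by 6 of 24 circadian clock genes and 4 of 18 genes for ERR family members and coregulators. Bhlhe40, a repressor of the clock, ranked 605, 826, 206 and 263 with an ERRE in the central window. Nr1d2, which encodes REV-ERBβ, ranked 995, 488, 301 and 208, and Nfil3, a repressor of clock output, 2244, 799, 4057 and 2721. Of 7 sites near clock genes 4 held an ERRE. Ncoa3, a nuclear receptor coactivator, ranked 864, 594, 553 and 284 with an ERRE 11298 bp upstream of its TSS. Ncoa1, of the same coactivator family, ranked 4981, 9882, 2872 and 2721.

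Lipid synthesis, antioxidant genes and insulin and AMPK signalling stood closer to the 5.48% of all genes. Lipid synthesis had 3 of 26, with Acacb, the acetyl-CoA carboxylase at the mitochondrial membrane, at ranks 96, 105, 184 and 144 and Dgat1, which forms triglycerides, at ranks 6999, 7934, 1805 and 1608. Antioxidant genes had 2 of 25, Gpx4 at ranks 1463, 3231, 2872 and 3101 and Nfe2l2, the NRF2 gene, at ranks 4492, 2730, 2872 and 11803. Insulin and AMPK signalling had 2 of 26. Prkag2, a regulatory subunit of AMPK, ranked 438, 677, 5892 and 661, and the upstream kinase gene Camkk2 ranked 2091, 5086, 16894 and 1773. In WT muscle this site was tied at the minimum score.

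Among genes abundant in muscle, Mb (myoglobin) and Tnni1 (slow troponin I), 2 of 20, had shared sites, at ranks 4147, 7231, 3962 and 1356 and at ranks 4981, 6466, 2872 and 1233. None of 20 liver-abundant, 18 blood or endothelial and 31 proteasome genes had one, in short lists and beside a share of 5.48% over all genes. Of these genes, 1, 3 and 3 had an interval within 20 kb in all 4 lists, whether or not at the same site. In WT liver, 10 proteasome genes had an interval within 20 kb. Vegfa, the angiogenic growth factor, had an upstream site at ranks 2403, 2298, 951 and 824. Of 30 genes whose muscle tracks the study displayed or named, 10 had a shared site, a list that the study chose on these samples. The other such genes with a shared site were Ndufc1, at ranks 1746, 1205, 1543 and 1899, Uqcrq, at ranks 4523, 4455, 3863 and 2721, and Cox7a2, at ranks 2091, 1860, 9455 and 1608.

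The shared sites at genes of oxidative phosphorylation and the TCA cycle sat downstream of the start site. Of the 54 within 1 kb of a TSS, 49 (90.7%, 80.1–96.0) had their centre downstream, at a median of 250 bp into the gene, against 266 of 429 (62.0%) other shared sites within 1 kb, a difference of 28.7 points (17.2 to 35.8). Of the 23 WT liver intervals at the same genes that were no shared sites, 21 lay downstream as well (91.3%), and the shared sites differed from them by -0.564 points (-12.9 to 18.3). CpG-rich sites made up 81.5% of the 54 and 67.1% of the 429. The ERRE was present in the central window of 5 of the 54 (9.26%) and 13.5% of the 429, and the hexamer in 66.7% and 63.9%. Most of these sites thus held a hexamer but no TCAAGGTCA in the window searched.

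Although called in all 4 lists, some sites ranked high in 1 tissue only. The geometric mean of the top percent over genotypes was at least 10 times smaller in liver for 23 shared sites and at least 10 times smaller in muscle for 125. The most liver-weighted sites were in the 3′ UTR of Lancl1, at ranks 14, 7, 1338 and 1152, in an intron of Rnf220, a ubiquitin ligase gene, at ranks 67, 48, 10219 and 5574, and 18084 bp from the TSS of Mvk, mevalonate kinase of cholesterol synthesis, at ranks 89, 77, 15869 and 5574. Their top percents differed 88.0-fold, 93.3-fold and 79.7-fold between tissues. The most muscle-weighted site, annotated to Mir1963, lay in an intron of Ryr1, the calcium release channel of muscle, with 2 ERREs and ranks of 8204, 23394, 124 and 136, a 152-fold difference. Pvalb, the calcium buffer parvalbumin of fast fibres, had a promoter-TSS site with an ERRE at ranks 21383, 23394, 160 and 520, and a site upstream of Rnft1 ranked 4068, 7046, 50 and 74. At all 6 sites both genotypes leaned the same way, as the plot of liver against muscle ranks shows for their means. These sites were chosen for their difference in rank.

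**Figure D5:**
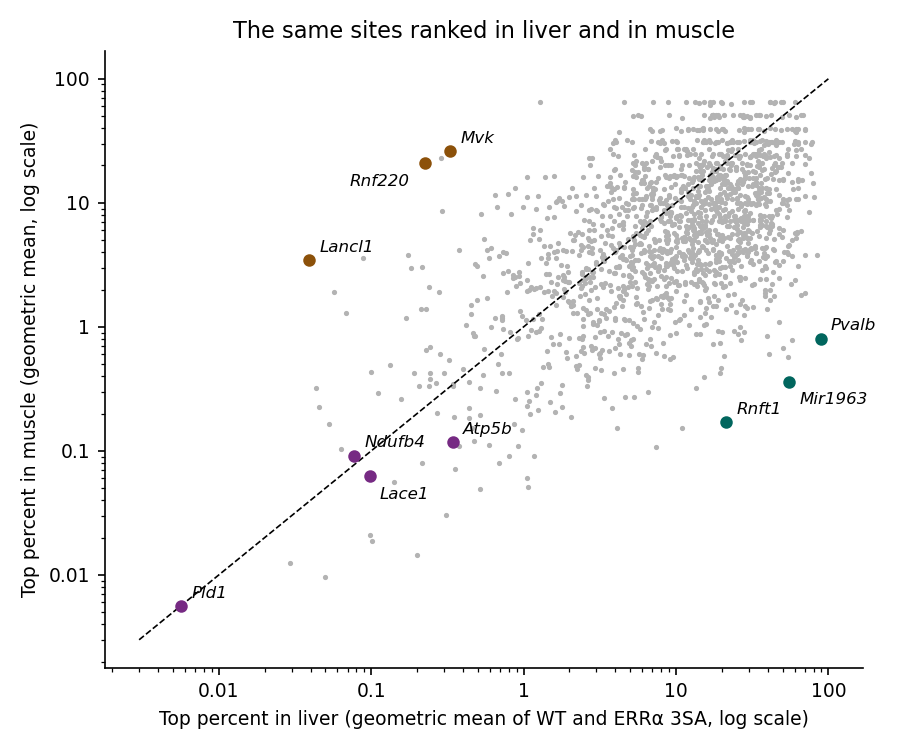
Each point is 1 of the 1672 shared sites, with its top percent in liver on the horizontal and in muscle on the vertical axis (geometric means of WT and ERRα 3SA, both axes log). Mvk, Rnf220 and Lancl1 lie far above the dashed line of equal values, Rnft1, Mir1963 and Pvalb far below it, and Pld1 sits on it at the lower left.

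Between genotypes, 883 of the shared sites had a smaller top percent in ERRα 3SA in both tissues and 120 a larger one. By rank number, which the length of the list does not scale, 793 (47.4%) stood higher in ERRα 3SA liver than in WT liver and 863 (51.6%) in ERRα 3SA muscle than in WT muscle. The sites that stood higher in ERRα 3SA in both tissues by the most were Sppl2a, at ranks 6227, 863, 1186 and 204, and Frat2, at ranks 4913, 964, 1186 and 386, each with an ERRE, and Sfxn5, at ranks 7972, 1320, 16894 and 5574, without one. Sppl2a encodes an intramembrane protease, Frat2 a binding partner of GSK3 and Sfxn5 a mitochondrial carrier. In the other direction stood Gm10324, at ranks 2968, 15349, 937 and 11987, 4930467E23Rik, at ranks 2940, 28188, 1320 and 11589, and Tmem267, at ranks 4952, 28907, 430 and 3035. The central windows of the latter 3 had 6, 5 and 2 near-identical copies in the assembly, the site itself included, while the former 3 were single copy. Some of these ranks lay at or near the lowest score of 30. Tmem267 scored 30 and 4930467E23Rik 31 in ERRα 3SA liver, and Sfxn5 30 in WT muscle, where all intervals with that score share rank 16894. With 1 library per list the differences between genotypes have no replicate check.

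Near-identical copies, with at least 95% identity over 270 of the 300 central bases, were found for 92 shared sites (5.50%, 4.51–6.70) against 4.23% of the other WT liver intervals. Of the 92, 1 held an ERRE and 23 a hexamer, against 26.0% and 72.6% of the 1580 single-copy sites. Their median top percent was 22.5, 24.9, 5.92 and 4.92, so that they ranked lower in the liver lists than the shared sites as a whole, at 12.7 and 9.92. They include clusters at Snord116, Zfp982, Gm21119 and Gm10324 with 4 sites each. The part of multiple copies in these sites being called was not tested. Leaving them out changed the difference in CpG-rich share to 18.7 points and that of the ERRE to 11.8 points.

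The 1672 sites were annotated to 1469 genes, and 69 genes had at least 2 shared sites within 20 kb. Within 10 kb of another shared site lay 145 of them. Ccl28, a chemokine of mucosal tissues, and Pisd-ps1, a pseudogene, had 4 each. The sites of Ccl28 spanned 119609400 to 119617588 on chromosome 13 and held no ERRE. Their ranks ran from 1281 to 4981, from 4120 to 9524, from 172 to 951 and from 416 to 1749, so that all 4 stood higher in the muscle lists. Those of Pisd-ps1 on chromosome 11 between 3126738 and 3142715 held no ERRE either, the best ranked in muscle standing at 515, 1391, 82 and 113 with 2 copies in the assembly.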

How the data were processed

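ERRα ChIP-seq was read from 4 peak lists, 1 per genotype and tissue, each called against input DNA. Per the submitters' processing notes the tools were Trimmomatic 0.36, BWA 0.7.12, Picard 2.0.1, MACS2 2.1.1.20160309 and HOMER 4.9.1, on mm10. The deposited lists give, per interval, a whole-number peak score (lowest 30, formula not given in the sources used here), CpG and GC content as a fraction of the interval, an annotation and the distance to the nearest TSS. The authors' notes on the labels and the study's methods differ on how many immunoprecipitations were pooled, and the labels' number is given. Intervals vary in width, so motifs were read in the central 300 bp of each, from the RefSeq GRCm38 genome, with control windows 5 kb to either side.

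Shared sites, gene lists and comparisons were chosen with earlier results of these data known. Genes were named by rule: the 12 smallest worst top percents, the 3 most skewed sites each way between tissues and between genotypes, up to 3 best ranked per gene list, Esrra and genes whose muscle tracks the study shows, the sites beside the distance limit, and genes with at least 4 shared sites. A few genes that the rule names are not reported here. The tools used here were minimap2 2.31, pysam 0.24.0, pandas 2.3.3, matplotlib 3.10.9, scipy 1.17.1 and numpy 2.4.6 under Python 3.11.15. The steps were tested on simulated data. With 1 library per list no p-value was computed, and depth is unknown. Alternatives covered the centre distance, overlap, score, CpG threshold, motif, window, gene distance, list length and repeated sequence.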

Additional observations from a re-analysis of the deposited data

Results flagged for a closer look

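Of 90 named shared sites, 29 moved in opposite directions between genotypes in liver and muscle, and in 2 of them the top percent differed at least 2-fold each way. Over all 1672 shared sites, 883 (52.8%) had a smaller top percent in ERRα 3SA in both tissues and 120 (7.18%) a larger one. Some named sites were chosen because they moved the same way in both tissues. At 1 of the sites of Ccl28 the ratio of the WT to the ERRα 3SA top percent was 0.414 in liver and 2.04 in muscle, while its ranks were 1281 in WT liver, 4120 in ERRα 3SA liver, 558 in WT muscle and 544 in ERRα 3SA muscle. In muscle the rank numbers were thus nearly equal, and the ratio there goes with the lengths of the lists, 25427 and 50647 intervals. At Nfe2l2 the ratio was 2.19 in liver and 0.485 in muscle, with ranks of 4492, 2730, 2872 and 11803 in the same order. These differences between tissues were not tested, since each ratio compares 1 library with 1 library.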

How the results depend on the processing

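No paired analysis was possible because each genotype and tissue had 1 library and no result comes from a test. The number of shared sites followed the rule, with 449 at a centre distance of 100 bp, 800 at 150 bp, 2654 at 1000 bp, 2526 by shared bases, and 878 and 403 with scores of at least 50 and 100 in all 4 lists. The difference from other WT liver intervals at promoter-TSS was 7.43 points at 100 bp, and 19.8 points when read within 1000 bp of the TSS. The CpG-rich difference stayed above 0 in every alternative run, at 21.8 points (100 bp), 15.7 (1000 bp), 15.9 (shared bases), 16.1 (score under 100), 20.4 (no repeats), 21.6 and 6.80 (thresholds of 0.03 and 0.08), 27.2 (promoter-TSS) and 12.9 (elsewhere). The ERRE difference depended on the score. It was -0.0957 points at scores of at least 100, and 1.54, -2.01, 3.45 and 1.02 points in the bands from 50, 100, 200 and 500, which were chosen after seeing the data. It was 8.32 (1000 bp), 8.67 (shared bases), 13.3 (TNAAGGTCA), 4.85 (100 bp at the centre), 14.9 (whole interval) and 2.16 points (promoter-TSS). Also chosen after seeing the data, at scores of at least 100 the hexamer difference was 3.04 points and the CpG-rich difference from sites shared with ERRα 3SA liver alone 22.7 points. Oxidative phosphorylation genes exceeded all genes by 20.7 points with promoter-TSS sites only and by 23.0 points at 100 bp, the latter added after seeing the data. Median top percents in lists of equal length were 11.0 in WT liver, 11.9 in ERRα 3SA liver and 8.02 in ERRα 3SA muscle, and for promoter-TSS sites 8.32 in ERRα 3SA liver, 6.07 in WT muscle and 3.40 in ERRα 3SA muscle. With promoter-TSS sites only, complex III, mitochondrial dynamics and ERR coregulators had no gene with a site, -1.26 points from all genes, and pyruvate entry stood at -1.44 points at 100 bp. Under other annotations, all 5 complex III sites lay within 1 kb of a TSS, as did 3 of 5 of mitochondrial dynamics and 1 of 4 of ERR coregulators. The causes were not tested. Unknown depth and single libraries limit every comparison between lists.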
